A study of Mus musculus with 120 samples.

Results

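The IkB family and the feedback genes of NF-kB were followed in single mouse ILC2 (group 2 innate lymphoid cells), a source of interleukin (IL)-13 and IL-5 in type 2 immunity. The 10 genes were chosen by name out of 46078 gene identifiers, with earlier results of these data known. They were the inhibitors Nfkbia, Nfkbib and Nfkbie, their nuclear relatives Nfkbid, Nfkbiz and Bcl3, the feedback genes Tnfaip3, Tnip1 and Traf1, and the zinc finger gene Hivep2. The data are 120 libraries, each of 1 cell, from wild-type C57BL/6 ILC2 taken from the pooled mesentery of 20 mice, sorted as lineage-negative cells positive for c-Kit and Sca-1, and kept for months in culture with IL-2. The age of the mice is not in the labels, and the study's methods say that the donors of ILC2 were as a rule retired female breeders. Secretion was followed by live imaging of single cells, with IL-13 as the index cytokine for 60 cells and IL-5 for the other 60. In each index, 5 cells were taken before stimulation, and all other cells had been incubated with IL-2 and IL-33: 11 transition cells each at 30, 60 and 90 min after the onset of secretion, 11 activated cells, which secreted, and 11 silent cells, in which no secretion was seen. Per the study's methods, activated and silent cells were recovered at 1 fixed time after the start of stimulation, whereas transition cells were timed from their own onset.

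NF-kB transcription factors are held in the cytoplasm by IkB proteins. Signals such as IL-33, which acts through its receptor ST2 and the adaptor MyD88, switch on a kinase complex that marks IkB proteins for breakdown, and the freed factors enter the nucleus. Several genes that they switch on encode their own inhibitors, so that the response includes its own brake, and other members act inside the nucleus, where they can help as well as hinder transcription.

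The median cell had 254001 gene reads, the lowest 65 and the highest 785198, and 6 of the cells held fewer than 84667 reads, the median divided by 3. The near-empty cells among these had the IL-5 index: at 30 min replicate 10 with 73 reads, at 60 min replicate 8 with 65 reads, and replicate 7 of the silent cells with 2152 reads, in which 1 read of Nfkbia is worth 465 CPM. Of the 100 member levels with more than 3 reads, 45 moved by over 1.5 times on leaving out 1 cell: all 9 of Nfkbie, 9 of 10 of Nfkbid, 7 of 10 of Tnfaip3, 6 of 10 of Tnip1, 6 of 7 of Hivep2, 3 of Nfkbiz, 3 of Bcl3, 1 of Nfkbia, 1 of Traf1 and 0 of Nfkbib. Cells are not replicates of a state and no animal or culture is named for a cell, so each group of cells was taken as 1 sample. No test could be made, and no p-value is given. Levels are CPM, the summed reads of a group per 1000000 gene reads, with exact 95% Poisson intervals that cover counting error only, since the reads carry no molecular identifiers. Where a group had 0 reads, the level of 3 reads in that group is given as the limit taken for such a count, and a fold against it as at least that fold. This limit is below the upper end of the exact interval of 0 reads, which for Nfkbib before stimulation in the IL-13 index was 3.83 against 3.11 CPM. Both concern counting error only, and the fold leaves out that of the other group. Of 11 ILC2 marker genes, 10 had reads in all 12 groups, and their summed level ran from 6251 to 14088 CPM. Of 6 T-cell markers, 4 had a read, with a summed level of 1128 and 1195 CPM before stimulation in the IL-13 and IL-5 index against 259 and 20.3 CPM at 30 min, while Cd4 and Cd8a were at 0. Cd3g, which reached 1195 CPM, carried most of this sum, and Cd3d, Cd3e and Trac were at most 70.6, 3.02 and 8.22 CPM in any group. Mast cell or basophil markers summed to 301 and 37.1 CPM before stimulation and were at 0 at 30 min. The part of these differences in the results was not tested. Markers of B cells and of NK cells or ILC1 were at 0, and those of myeloid cells, ILC3 and fat stroma summed to at most 38.3, 344 and 175 CPM in any group. Each index has its own pair of title dates, so differences between indexes cannot be told apart from differences between dates, and the pre-stimulation cells are all from the first date of their index.

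NF-kB binds short DNA elements called kB sites, and the stretch upstream of each start site was searched for the kB consensus on both strands. RefSeq (GRCm38.p6) gave 12 start sites for 9 of the 10 members, with no entry for Nfkbiz, and 250 bases upstream of each were read. These start sites can differ from the ends of the GENCODE genes given below: the windows of Hivep2, of Nfkbib, of Tnfaip3 at its second site and of Nfkbid at all but its first lay wholly inside the GENCODE gene, and that of Tnfaip3 at its first site by 247 of 250 bases. The consensus matched in 6 of the 9 members: Nfkbia, Nfkbie, Nfkbid, Tnfaip3, Tnip1 and Hivep2. Over all genes, 4.46% of 27025 held a match in at least 1 such window, and 3.9% of 32851 windows did. A looser pattern of 3 G, any 5 bases and then 2 C, which every consensus match also meets, was found in 7 of the 9 members and in 48.7% of all genes. A match describes letters in a window and is not a measured binding site. Shown first is the window of Nfkbia, the classical IkB feedback gene, at chr12:55492648-55492897 on the minus strand, read 5′ to 3′ toward the start site, with the consensus match in capitals.
Nfkbia: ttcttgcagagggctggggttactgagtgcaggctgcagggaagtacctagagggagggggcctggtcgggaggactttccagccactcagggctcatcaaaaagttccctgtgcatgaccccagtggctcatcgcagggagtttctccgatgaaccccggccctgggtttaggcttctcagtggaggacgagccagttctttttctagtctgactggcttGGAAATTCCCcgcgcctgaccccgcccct
Its single match ran from base -29 to base -20, counted from the start site. Tnfaip3 is shown because the window of its first start site, at chr10:19015411-19015660 on the minus strand, held a pair of separate matches, at -125 to -116 and at -12 to -3.
Tnfaip3: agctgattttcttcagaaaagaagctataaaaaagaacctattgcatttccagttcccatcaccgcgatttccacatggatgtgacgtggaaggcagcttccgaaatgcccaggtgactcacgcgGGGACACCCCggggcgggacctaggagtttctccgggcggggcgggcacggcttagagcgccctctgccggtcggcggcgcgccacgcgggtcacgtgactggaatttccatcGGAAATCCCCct
Tnip1 is shown for a different arrangement, 3 overlapping matches from -58 to -47 at chr11:54962941-54963190, minus strand.
Tnip1: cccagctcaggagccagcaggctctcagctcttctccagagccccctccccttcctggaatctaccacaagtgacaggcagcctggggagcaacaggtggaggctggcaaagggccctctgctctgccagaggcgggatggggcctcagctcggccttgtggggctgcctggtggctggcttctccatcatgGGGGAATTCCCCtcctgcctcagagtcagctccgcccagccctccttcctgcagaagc
Hivep2 is shown because its level at 30 min differed most between the indexes, and its window at chr10:13966129-13966378, plus strand, held 1 match at -221 to -212.
Hivep2: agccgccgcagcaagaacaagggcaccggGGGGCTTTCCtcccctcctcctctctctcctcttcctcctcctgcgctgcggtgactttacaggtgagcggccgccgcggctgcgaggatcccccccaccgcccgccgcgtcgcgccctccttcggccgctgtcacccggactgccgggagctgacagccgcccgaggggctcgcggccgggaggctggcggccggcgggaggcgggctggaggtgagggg
Nfkbie had 1 match at -106 to -97, and Nfkbid had a pair at the second of its 3 start sites, at -226 to -217 and -181 to -172. No match lay in these windows for Nfkbib, Bcl3 and Traf1.

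Nfkbia encodes IkB-alpha, the inhibitor that is broken down and remade fastest after a stimulus. Its gene lies at chr12:55489410-55492647 on the minus strand (GRCm38, as for all genes here). Before stimulation, the 5 IL-13-index cells held 0, 0, 862, 0 and 4.63 CPM, and those of the IL-5 index 195, 300.1, 185, 0 and 359 CPM. Thus 1 cell carried 99.3% of the reads of the first group, whereas 4 of 5 cells had reads in the other. At 30 min, the 11 IL-13-index cells ran from 1052 to 4521 CPM with a median of 3103, above all 5 pre-stimulation cells. Among IL-5-index cells the range was 479.7 to 3702 CPM without the near-empty cell, again above all 5 cells taken before stimulation. The share of all genes whose cells separate in this way is not given, so such separations, here and below, only describe the members. The summed level went from 148 CPM (125 to 175) to 2994 CPM (2929 to 3060) in the IL-13 index, a log2 ratio of 4.34 (95% counting interval 4.10 to 4.58), and from 201 CPM (177 to 228) to 2186 CPM (2138 to 2235) in that of IL-5, a log2 ratio of 3.44 (3.26 to 3.63). Without the 1 high cell, the pre-stimulation level of the IL-13 index rested on 1 read.

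Nfkbia was above its pre-stimulation level in every stimulated state. Among IL-13-index cells it was 3005 CPM at 60 min, 1543 at 90 min, 1246 in activated and 883 in silent cells. With IL-5 as index it was 1409 CPM at 60 min, 1601 at 90 min, 1055 in activated and 1683 in silent cells. Every cell with more than 73 reads that had been stimulated had an Nfkbia read. The ranges of cells at 60 and 90 min, activated and silent overlapped the range at 30 min in both indexes. Among activated cells the median cell had 733 CPM (150.5 to 4656) in the IL-13 index and 778 CPM (401 to 3034) in that of IL-5.

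Nfkbib encodes IkB-beta, an inhibitor known for slower breakdown, and lies at chr7:28758251-28767512 on the minus strand. It had 0 reads in the 10 pre-stimulation cells, for which the limit of 3 reads is 3.11 CPM in the IL-13 index and 2.47 CPM in that of IL-5. At 30 min it stood at 202 CPM (186 to 220.3) and 259 CPM (243 to 277), at least 65.1-fold and 105-fold higher. In the other stimulated states it was between 77% and 127% of its 30 min level in the IL-13 index and between 44.9% and 97.1% in that of IL-5. In activated IL-5-index cells its level was 319 CPM on the first title date and 110.4 CPM on the second, against 211 and 297 CPM at 30 min. With IL-13 as index it had 184 CPM at 60 min, 256 at 90 min, 156 in activated and 159 in silent cells, levels whose ranges on leaving out any 1 cell overlapped from each neighbour in the order to the next. For the IL-5 index it had 252, 116, 199 and 178 CPM in the same order, with 90 min the lowest level. The gene overlaps Sirt2 on the opposite strand, with 1882 reads over all cells against 5734 of Nfkbib, and the strand setting of the counting is not stated, so reads of the shared stretch cannot be told apart.

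Nfkbie encodes IkB-epsilon (chr17:45555703-45563169, plus strand) and was read in few cells. It too had 0 reads before stimulation. At 30 min it had 41.1 CPM (33.8 to 49.5) in the IL-13 index, from 3 of 11 cells, and 90.7 CPM (81 to 101) in that of IL-5, from 6 of 11 cells. For the IL-13 index, 1 cell held 89.1% of these reads, and without it the level was 5.06 CPM, and in that of IL-5 1 cell held 59.3%, with 41.4 CPM left without it. In the IL-13 index Nfkbie had 69.2 CPM at 60 min, 0.626 CPM in activated cells (2 reads) and 69.1 CPM in silent cells. Without its highest cell, the level at 60 min was 31.9 CPM and that of silent cells 33.6 CPM. On the IL-5 side it had 17.3 CPM at 60 min, 30.1 at 90 min, 13.9 in activated and 3.26 in silent cells, and 1 cell held 98.1% of the reads of the activated group. Without 1 cell each, the 60 min level was 4.22 CPM and the 90 min level 15.2 CPM.

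Nfkbiz encodes IkB-zeta, a nuclear member that helps to switch on a subset of NF-kB targets (chr16:55811375-55838899, minus strand). On the IL-13 side it went from 1 read in the 5 pre-stimulation cells (0, 0, 0, 0 and 4.63 CPM) to reads in all 11 cells at 30 min, with a range of 352 to 1238 CPM and a median of 807. These groups did not overlap, a separation whose share over all genes is not given. The level at 30 min was 756 CPM (723 to 789) against 1.04 CPM, a log2 ratio of 9.51 with a counting interval of 7.03 to 14.81, taken on the 1 read as counted, and 7.92 when 3 reads are taken in its place as for the calls. Its level was lower in each other stimulated state: 573 CPM at 60 min, 243 at 90 min, 143 in activated and 62.7 in silent cells, an order in which no neighbours overlapped on leaving out any 1 cell. By title date, however, it was 622 and 110.3 CPM at 90 min against 117 and 159.7 CPM in activated cells, so this step of the order turned on the second date. The 11 silent cells, at 0 to 194 CPM, all lay under the lowest cell at 30 min, and 9 of 11 cells at 30 min lay above the highest activated cell (405 CPM).

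Among IL-5-index cells Nfkbiz already had reads in 3 of the 5 pre-stimulation cells, at 22.5, 225, 0, 102 and 0 CPM. The 30 min level was 427 CPM (405 to 449) against 84.1 CPM (68.6 to 102), a log2 ratio of 2.34 (2.05 to 2.65) that was 3.55 without pre-stimulation replicate 2, and 8 of 11 cells had a read, with a range of 0 to 1743 CPM and a median of 417. Cells at 30 min and before stimulation overlapped here. The other stimulated states were uneven, with 130.2 CPM at 60 min, 273 at 90 min, 115 in activated and 235 in silent cells. The ranges on leaving out any 1 cell overlapped between all neighbours below 30 min in the order of levels.

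Bcl3 encodes a nuclear IkB relative that binds the p50 and p52 subunits (chr7:19808462-19822770, minus strand). It had 0 reads before stimulation in both indexes. At 30 min it had 211 CPM (194 to 229) in 8 of 11 IL-13-index cells and 166 CPM (153 to 180.4) in 9 of 11 IL-5-index cells. The median cell held 179 CPM (0 to 394) and 118 CPM (0 to 510.3). Its level was between 92.2 and 128 CPM at 60 and 90 min. Among IL-13-index cells it had 11.6 CPM (8.16 to 16) in activated cells, read in 3 of 11, and 4.53 CPM (2.34 to 7.92) in silent cells, read in 1 of 11. With IL-5 as index it had 42.9 CPM in activated cells and 43.1 CPM in silent cells, and 1 silent cell held 78.8% of the silent reads. An antisense gene, Gm16174, had 191 reads over all cells against 2597 of Bcl3.

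Nfkbid encodes IkB-NS, another nuclear member (chr7:30421732-30428746, plus strand), and was the 1 member of the IL-13 index that was not higher at 30 min. Its 5 pre-stimulation cells there held 4.06, 0, 0, 699 and 0 CPM, so that 1 cell carried 99.2% of the group's reads. The level was 123 CPM before stimulation and 73.2 CPM at 30 min, a log2 ratio of -0.75 (-1.09 to -0.41), and without that cell the pre-stimulation level was 1.26 CPM, from 1 read. For the IL-5 index Nfkbid had 0 reads before stimulation and 118 CPM (107 to 130.1) at 30 min in 8 of 11 cells, at least 47.8-fold higher. It had 15.8 CPM at 60 min, all from 1 cell, 73.3 at 90 min, 0 reads in activated cells and 34.6 CPM in silent cells, again from 1 cell. The limit of the 0 reads in activated cells is 0.804 CPM, at least 147-fold lower than at 30 min. With IL-13 as index, Nfkbid had 46, 39.6, 38.8 and 7.93 CPM at 60 min, at 90 min, in activated and in silent cells.

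**Figure D1:**
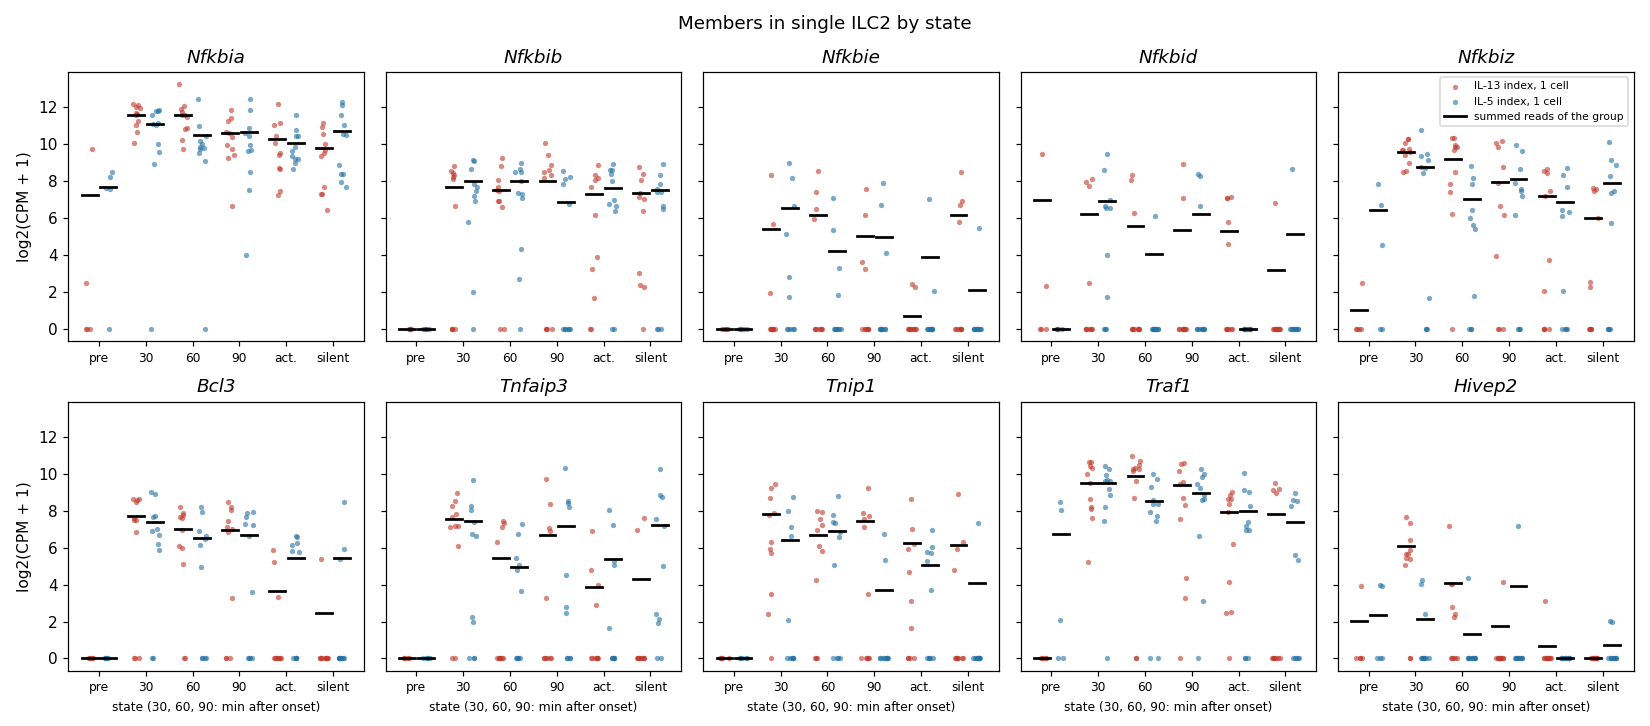
Level of each member in single cells, as log2(CPM + 1), by state, for the IL-13 index (red) and the IL-5 index (blue); each point is 1 cell and each black bar is the summed level of the group. At 30 min all 11 IL-13-index cells lie above all 5 pre-stimulation cells for Nfkbia, Nfkbiz and Traf1, while Nfkbie, Nfkbid and Hivep2 are at 0 in many cells of most states. The share of all genes that separate in this way is not given.

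Tnfaip3 encodes A20, an enzyme that edits ubiquitin chains and shuts off signaling upstream of the kinase complex (chr10:19000910-19015657, minus strand). It had 0 reads before stimulation. At 30 min it had 187 CPM (171 to 204) in the IL-13 index, with reads in 9 of 11 cells, a median of 144 CPM and a highest cell of 491 CPM. On the IL-5 side it had 171 CPM (158 to 186), with reads in 8 of 11 cells and a median of 99.6 CPM. At 60 min the level was 42.8 CPM in the IL-13 index, a log2 ratio to 30 min of -2.13 (-2.42 to -1.85), and 30.4 CPM in that of IL-5, a log2 ratio of -2.49 (-2.81 to -2.19). At 90 min the summed level was 103 and 143 CPM, and in the IL-13 index the levels at 60 and 90 min did not overlap on leaving out any 1 cell, nor did they in that of IL-5. The median cell had 0 CPM at 60 and 90 min in the IL-13 index and 11.5 and 5.8 CPM in that of IL-5, where at equal depth 6 of 10 and 4 of 10 cells had a read. The highest cells at 90 min, at 823 and 1246 CPM, were shallow ones. Activated cells had 13.8 CPM in the IL-13 index and 40.7 CPM in that of IL-5.

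Silent cells had 18.9 CPM of Tnfaip3 in the IL-13 index and 149 CPM (136 to 163) in that of IL-5, where 1 cell held 47.5% of the reads and the level without it was 83 CPM. Of the silent cells, 2 of 11 had a Tnfaip3 read in the IL-13 index and 9 of 11 in that of IL-5, and at an equal depth of 100000 reads these were 2 of 11 and 5 of 10.

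Tnip1 encodes ABIN1, a partner of A20 that binds ubiquitin chains (chr11:54910785-54962917, minus strand). It had 0 reads before stimulation. At 30 min it had 220.4 CPM (203 to 239) in 10 of 11 IL-13-index cells, and 82.5 CPM (73.3 to 92.5) in 5 of 11 IL-5-index cells. The median cell held 78 CPM (0 to 687) in the first and 0 CPM (0 to 428) in the second. For the IL-13 index it had 102 CPM at 60 min, 174 at 90 min, 75.8 in activated and 68.4 in silent cells, and 1 cell held 57.6%, 66.1% and 80.7% of the reads in the last 3 of these groups, which had 88.7, 29.5 and 14.9 CPM without it. Among IL-5-index cells it had 118, 12, 32.2 and 15.7 CPM in the same order, and all silent reads came from 1 cell.

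Traf1 encodes an adaptor of the TNF receptor family and is a well-known NF-kB target (chr2:34941750-34961772, minus strand). On the IL-13 side it had 0 reads before stimulation and reads in all 11 cells at 30 min, with a range of 36.5 to 1590 CPM and a median of 734. The level at 30 min was 711 CPM (679 to 743), followed by 948 CPM (914 to 983) at 60 min and 666 CPM at 90 min (268 and 806 CPM by title date, with log2 ratios to 30 min of -1.93 and 0.61). Activated cells had 240.2 CPM and silent cells 228 CPM. With IL-5 as index the pre-stimulation cells held 262, 3.26, 347, 0 and 0 CPM, and the level went from 106 CPM (88.1 to 126) to 716 CPM (688 to 744), a log2 ratio of 2.76 (2.50 to 3.03). Pre-stimulation replicate 3 held 71.9% of the reads, and without it the level was 38 CPM and the ratio 4.24. These cells overlapped, since 2 of the 5 pre-stimulation cells lay above the lowest cell at 30 min (173 CPM, without the near-empty cell). At 60 and 90 min, in activated and in silent cells it had 368, 486, 256 and 166 CPM. Activated and silent IL-13-index cells differed little in the level of Traf1, with a log2 ratio of 0.07 (-0.08 to 0.23), but 10 of 11 activated cells and 4 of 11 silent cells had a read. At least 5 reads were found in 7 activated and 4 silent cells.

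Hivep2 encodes a large zinc finger protein that binds kB-like elements (chr10:13966075-14151374, plus strand). Among IL-13-index cells its level was highest at 30 min. It had 3.11 CPM before stimulation (3 reads, all in 1 of the 5 cells, at 13.9 CPM), 65.7 CPM (56.4 to 76.2) at 30 min, 16 CPM at 60 min, 2.4 CPM at 90 min (4 reads), 0.626 CPM in activated cells (2 reads) and 0 reads in silent cells, for which the limit of 3 reads is 1.13 CPM. The log2 ratio of 30 min to pre-stimulation was 4.40, with a counting interval of 2.83 to 6.69. At 30 min 9 of 11 cells had a read, with a median of 48.9 CPM and a highest cell of 198 CPM. At 60 min 6 of 11 had one, with a median of 3.7 CPM, and 1 cell held 73.5% of the reads. For the IL-5 index Hivep2 never passed 14.2 CPM, the level at 90 min, where all 26 reads came from 1 cell, and it had 3.38 CPM at 30 min from 12 reads in 3 of 11 cells.

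Cells at 30 min were compared with the 5 pre-stimulation cells of the same index. Only the former had been stimulated, so stimulation and onset cannot be told apart in this comparison. A gene was counted as higher or lower when the ratio of CPM, taking 3 reads for any group below that number, was 2-fold or more and the mean of both groups was at least 10 CPM. Shares of genes are over all genes that passed this minimum, while members are counted out of 10 whether or not they passed. With IL-13 as index 9 of 10 members were higher and 0 were lower, where 36.9% of 5791 genes were higher and 32.9% lower. On the IL-5 side 9 of 10 were higher and 0 lower, where 37.8% of 5911 genes were higher and 31.7% lower. Most members pass the 10 CPM minimum only through their 30 min level, so these counts describe the members and support nothing further. The median log2 ratio of the members was 5.97 in the IL-13 index and 5.13 in that of IL-5, against 0.00 and 0.06 over all genes. The exceptions were Nfkbid in the IL-13 index and Hivep2 in that of IL-5, which lay under the minimum. The call of Nfkbie in the IL-13 index was lost without 30 min replicate 8, with a log2 ratio of 0.70 and a mean under the minimum. Scaling by TMM moved the median of all genes by 0.21 and 0.36 in these comparisons, and no called member changed its direction.

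The comparisons among stimulated cells have both title dates, which often differed. Over members that passed the minimum, both dates lay on the same side of the 2-fold limit as the pooled ratio for 24 of the 38 called ratios and for 26 of the 45 within 2-fold, and the sign differed between dates for 3 and 24 of them.

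The next question was the order in which members left their 30 min level. For the IL-13 index, 3 of 10 members were 2-fold or more lower at 60 min than at 30 min, with 26.7% of genes lower and 27.8% higher, and 0 members were higher. They were Tnfaip3, Hivep2 and Tnip1, with log2 ratios of -2.13, -2.04 (-2.53 to -1.57) and -1.12 (-1.32 to -0.92). Nfkbia (100.4% of its 30 min level), Nfkbib (90.7%) and Traf1 (133%) were near or above that level at 60 min, Nfkbie was at 168% with most of its 30 min reads from 1 cell, and Nfkbiz (75.9%), Bcl3 (60.9%) and Nfkbid (62.9%) lay between, though by title date the ratio of Bcl3 was 0.60 and -1.35 and that of Nfkbid 1.70 and -5.96. At 90 min, 2 of 10 were lower (28.3% of genes) and 0 higher (30.8%): Hivep2 at 3.65% of its 30 min level and Nfkbiz at 32.2%, while Nfkbia stood at 51.5%, just inside the 2-fold limit. The call of Tnip1 at 60 min was lost on leaving out any 1 of 6 cells, to -0.76 without 30 min replicate 8, and Nfkbia at 90 min was -1.33 without 90 min replicate 9. By title date, the ratio of Tnfaip3 at 60 min was -1.67 and -2.56, that of Hivep2 was -0.72 and -3.91, and that of Nfkbiz at 90 min was -0.38 and -2.71. On the first title date Nfkbia (-1.48), Tnip1 (-1.47) and Traf1 (-1.93) were also lower at 90 min, against -0.71, -0.11 and 0.61 on the second. More members were counted as lower at 90 min without the shallow cells too. The median log2 ratio was -0.53 at 60 min and -0.81 at 90 min, against 0.04 and 0.08 over all genes.

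Among IL-5-index cells, 4 of 10 members were lower at 60 min (25.0% of genes) and 0 higher (24.4%): Nfkbid, Tnfaip3, Nfkbie and Nfkbiz, at 13.4%, 17.8%, 19% and 30.5% of their 30 min levels. On leaving out each cell, this count ran from 4 to 7. The 7 came without the 60 min cell numbered 1, when Nfkbia (log2 ratio -1.03), Traf1 (-1.18) and Bcl3 joined the lower members. By title date, the 60 min ratio was -6.72 and -0.79 for Nfkbid, -0.52 and -6.23 for Nfkbie, -3.51 and -1.54 for Tnfaip3 and -2.34 and -1.01 for Nfkbiz. At 90 min, 3 of 10 were lower (23.8%) and 0 higher (29.8%), and these were Tnip1, Nfkbie and Nfkbib. Nfkbid, Tnfaip3 and Nfkbiz were within 2-fold of 30 min, at 61.9%, 83.2% and 64.1%, but the ratio of Nfkbid was -1.75 without 90 min replicate 8, which left 35 CPM, and was -1.64 and 0.68 by title date. The 90 min ratio of Nfkbib was between -0.97 and -0.89 without any 1 of 4 cells, the last 30 min replicate 11, and that of Nfkbie was -0.46 without 30 min replicate 8. By title date these ratios were -0.89 and -1.32 for Nfkbib and 0.28 and -5.29 for Nfkbie. Tnip1 was at 143% at 60 min and 14.6% at 90 min, and its 60 min ratio was -0.48 and 2.52 by title date and 1.23 without 30 min replicate 2. The median log2 ratio was -1.08 at 60 min and -0.67 at 90 min, against 0.00 and 0.11 over all genes. Among 30, 60 and 90 min, 30 min was the highest in both indexes for Nfkbid, Nfkbiz, Bcl3 and Tnfaip3, and for Nfkbiz this held in each title date of each index. For Tnfaip3 in the IL-5 index the highest was 90 min in the second title date, by the mean of the cells' own CPM, and without the 30 min cell numbered 3. On the first title date of the IL-13 index 60 min was the highest for Nfkbid and Bcl3, and on the second of the IL-5 index 90 min was for Nfkbid.

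**Figure D2:**
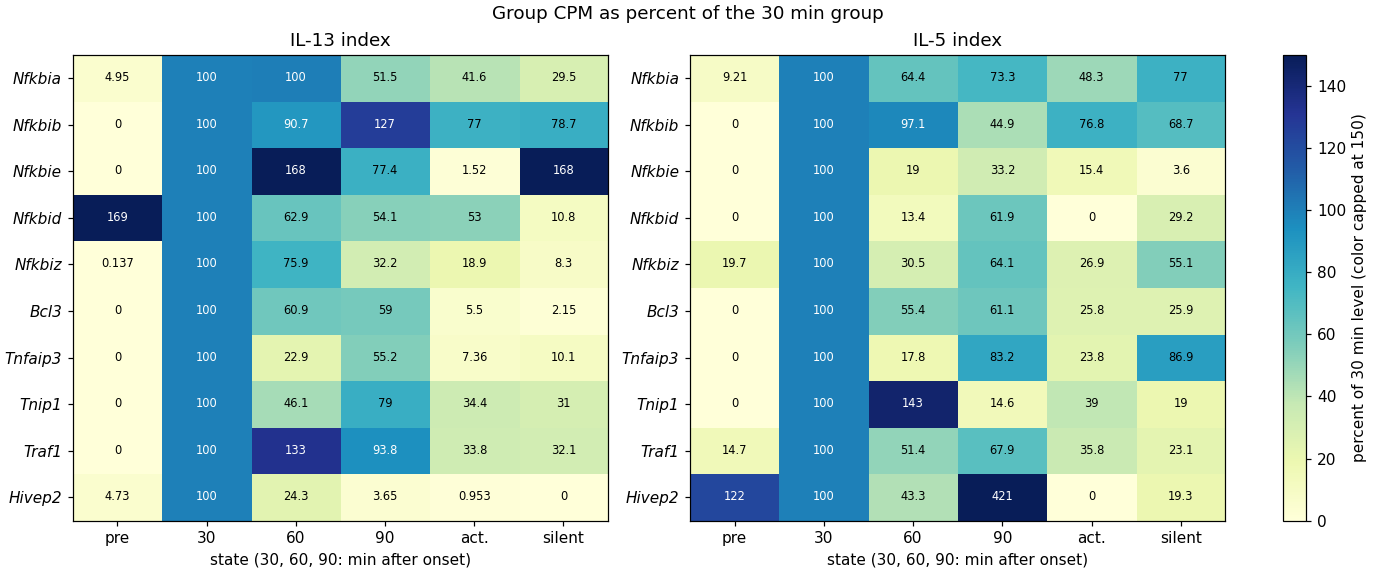
Summed CPM of each member in each state as a percent of its level at 30 min, for the IL-13 index (left) and the IL-5 index (right); color is capped at 150 and the numbers give the percent. Hivep2 and Tnfaip3 have the lowest percent of all members at 60 min in the IL-13 index (24.3 and 22.9), and Nfkbib is at 77 and 76.8 percent in activated cells, the latter a pooled value of title dates that lie on opposite sides of 100.

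Activated cells were then set against cells at 30 min, to see how far each member stood from its early level. On the IL-13 side 8 of 10 members were lower and 0 higher, where 31.4% of 5866 genes were lower and 31.0% higher. With IL-5 as index 8 of 10 were lower and 0 higher, where 30.4% of 5923 genes were lower and 23.4% higher. Hivep2 and Nfkbie in the IL-13 index and Nfkbid in that of IL-5 passed the 10 CPM minimum only through their 30 min level. The counts therefore describe the members and support nothing further. The median log2 ratios of -1.98 and -1.93 lay beside 0.07 and -0.12 over all genes. The lowest ratios in the IL-13 index were those of Hivep2 (0.626 against 65.7 CPM, log2 ratio -6.71, -9.77 to -4.84), Nfkbie (-6.04, -9.10 to -4.15), both taken on the 2 reads as counted, Bcl3 (-4.18, -4.71 to -3.70) and Tnfaip3 (-3.76, -4.24 to -3.32). Nfkbib was within 2-fold in both indexes, with a log2 ratio of -0.38 in each and intervals of -0.56 to -0.20 with IL-13 and -0.52 to -0.24 with IL-5, but by title date it was 0.04 and -0.78 with IL-13 and 0.60 and -1.43 with IL-5. Nfkbid of the IL-13 index was the other member within 2-fold, at -0.92 (-1.25 to -0.58), but it was -1.31 without activated replicate 4 and 0.79 and -2.47 by title date, and Hivep2 of the IL-5 index was under the minimum. The Nfkbia ratio of -1.05 (-1.11 to -0.99) in the IL-5 index lies at the 2-fold limit, was -0.88 on the second title date and was under 2-fold without any 1 of 9 cells, at -0.92 without 30 min replicate 9, and that of Tnip1, -1.36, was -0.65 without 30 min replicate 2 and differed in sign between title dates (-3.09 and 1.00). Nfkbie in the IL-13 index rests on 1 cell at 30 min, without which its level there was 5.06 CPM. By title date, the ratio of Traf1 was -2.41 and -0.96 in the IL-13 index, and that of Nfkbie -0.70 and -6.42 in that of IL-5.

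Activated and silent cells were each compared with the pre-stimulation cells, which these comparisons share with each other and with the 30 min comparison. Activated IL-13-index cells were higher for 5 of 10 members (36.8% of genes) and lower for 1 (34.1%), and silent cells for 6 (42.2%) and 1 (26.8%), with Nfkbid the lower one in both, while 6 and 7 of the 10 passed the minimum. For the IL-5 index, activated cells were higher for 6 (36.3%) and lower for 0 (36.0%), and silent cells for 6 (38.0%) and 0 (31.6%), with 7 of the 10 over the minimum in each. The pre-stimulation cells are all from the first title date, and on it alone some calls were lost or gained. Lost with IL-13 as index were Nfkbid in activated cells (log2 ratio -0.76) and Nfkbie and Tnip1 in silent cells. Lost in the IL-5 index were Tnip1 in activated cells and Nfkbiz (0.90) and Bcl3 in silent cells. Tnfaip3 was gained in both states of the IL-13 index. In the IL-5 index Nfkbie was gained in activated cells, and Traf1 (1.08) and Tnip1 in silent cells. Nfkbia and Nfkbib were among the higher members in all 4 comparisons. Nfkbia was 8.4-fold and 5.95-fold above the pre-stimulation level in activated and silent IL-13-index cells and 5.24-fold and 8.36-fold in those of the IL-5 index. Bcl3 and Tnfaip3 were higher in activated and in silent IL-5-index cells, and lay under the minimum in those of the IL-13 index. Nfkbid of the IL-13 index rests on pre-stimulation replicate 4, without which activated cells were higher by 3.36 and silent cells by 1.07 on the log2 scale, the latter under the minimum. Tnip1 in silent IL-13-index cells, with 14.9 CPM without replicate 6, then had a mean under the minimum too. On the IL-5 side, 4 calls were lost without 1 cell: Traf1 in activated cells (1.28, lost without any 1 of 4 cells and 0.80 without replicate 4), Nfkbiz in silent cells (1.48, and 0.75 without replicate 11), Bcl3 in silent cells, which had 10.1 CPM without replicate 11 and a mean under the minimum, and Nfkbid in silent cells, whose reads all came from replicate 3.

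Between activated and silent cells, few members differed by 2-fold, and Nfkbid and Nfkbiz did so in opposite directions in the 2 indexes, a difference that was not tested. Among IL-13-index cells, Nfkbid and Nfkbiz were higher in activated cells (2 of 10, 24.5% of genes) and Nfkbie lower (1 of 10, 36.5%). Nfkbiz had 143 CPM in activated and 62.7 CPM in silent cells, a log2 ratio of 1.19 (0.93 to 1.45) that was under 2-fold without any 1 of 3 activated cells, at 0.73 without replicate 7. Among IL-5-index cells, Tnip1 was higher in activated cells (1 of 10, 21.1%) and Nfkbid, Nfkbiz and Tnfaip3 lower (3 of 10, 28.4%). Nfkbiz had 115 CPM there against 235 CPM in silent cells, a log2 ratio of -1.03 (-1.21 to -0.86) that was under 2-fold without any 1 of 11 cells, at -0.30 without silent replicate 11, and was -0.19 and -1.72 by title date. The difference of Tnfaip3, with a log2 ratio of -1.87 (-2.15 to -1.60), was 2-fold or more whichever cell was left out and was -2.75 on the second title date alone, with the first at the 2-fold limit. Nfkbid there rests on the 1 silent cell with reads, and Tnip1, at 1.04, was under 2-fold without any 1 of 13 cells, at 0.63 without activated replicate 9, and was -0.65 and 4.34 by title date. Nfkbia was 1.41-fold higher in activated IL-13-index cells and 1.59-fold lower in those of the IL-5 index.

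**Figure D3:**
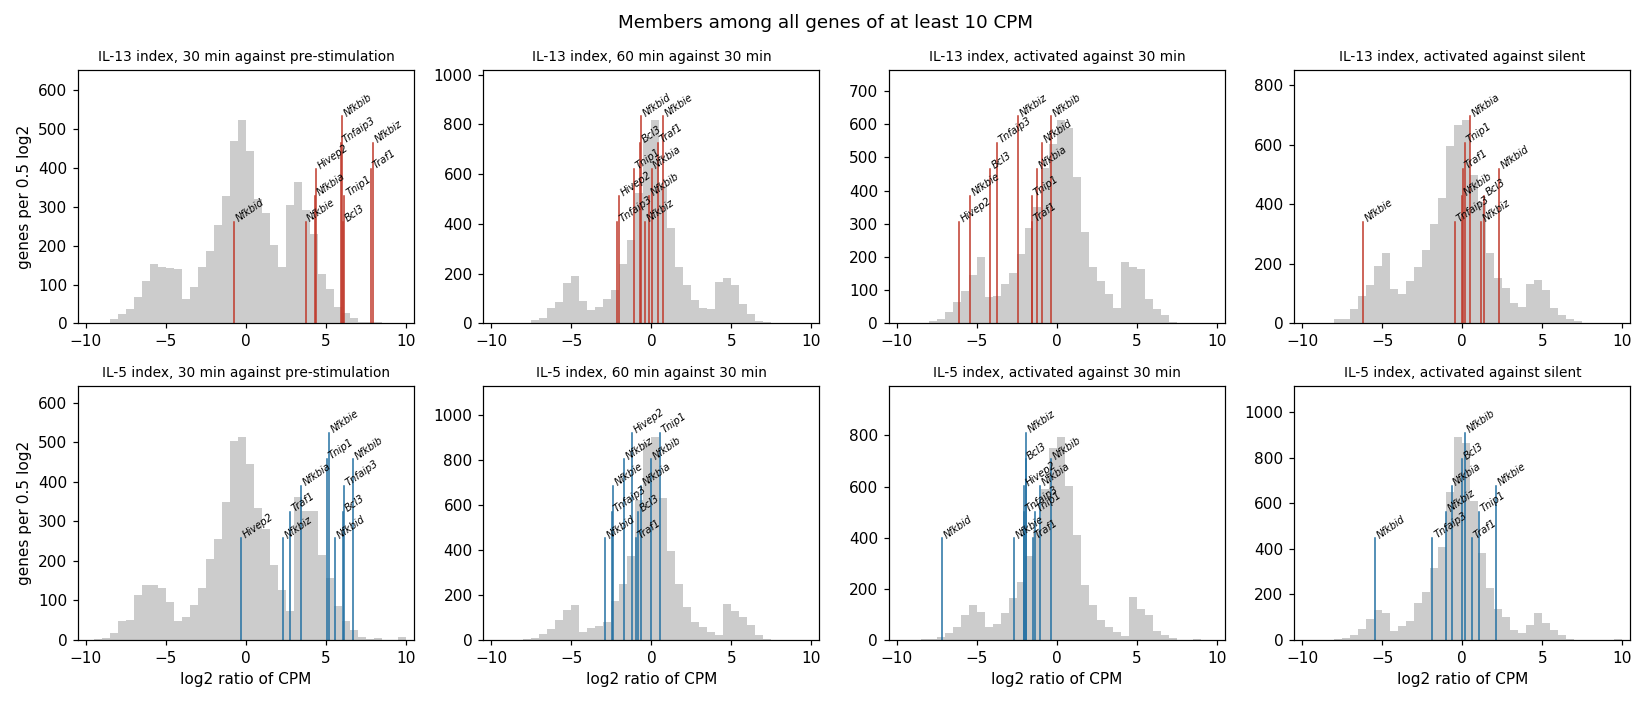
Log2 ratio of CPM for the members (colored lines with names) over the distribution of all genes with a mean of at least 10 CPM (gray bars, genes per 0.5 log2), in 4 comparisons of each index, with 3 reads taken for a group that had fewer. At 30 min against pre-stimulation, members lie right of 0 except Nfkbid in the IL-13 index and Hivep2 in that of IL-5, and all shown lie left of 0 in activated cells against 30 min, while activated against silent cells scatter on both sides; outer humps of the gray bars hold genes with under 3 reads in a group.

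Cells at 30 min of the IL-5 and the IL-13 index were compared directly. Of 10 members, 1 was higher in the IL-5 index (31.6% of genes) and 2 were lower (25.4%). Hivep2 showed the largest difference, at 3.38 CPM against 65.7 CPM, a log2 ratio of -4.28 (-5.26 to -3.44), and it was -4.32 and -4.25 with the first and the second title dates of each index alone. Tnip1 was lower, with a log2 ratio of -1.42 (-1.62 to -1.21), but with -0.39 from the first dates and -3.42 from the second. Nfkbie was higher by 1.14 (0.83 to 1.47), which was under 2-fold without any 1 of 5 cells, at 0.01 without replicate 8 of the IL-5 index. The other members were within 2-fold, from Nfkbiz at -0.83 (-0.92 to -0.73) to Nfkbid at 0.69 (0.44 to 0.94), though by title date Nfkbiz was -0.38 and -1.41 and Nfkbid 2.29 and -0.88, and Traf1 was almost equal, at 716 and 711 CPM.

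The spread of the members over cells was described by the SD of log2(CPM + 1). At 30 min in the IL-13 index it was 0.67 for Nfkbia, 0.62 for Nfkbiz and 1.68 for Traf1, and from 2.58 for Hivep2 to 4.15 for Nfkbib for the others. Of these, Nfkbie had 2.87 with reads in 3 of 11 cells, and Nfkbib was read in 7 of 11. The SD thus does not rank evenness where many cells are at 0. In activated cells of that index it was 1.54 for Nfkbia and 3.89 for Nfkbiz, and in silent cells 1.63 and 3.42. With IL-5 as index at 30 min, without the near-empty cell, it was 1.04 for Nfkbia, 0.92 for Traf1 and 4.26 for Nfkbiz, and 2 of these 10 cells had no Nfkbiz read.

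Detection was compared at equal depth, with each cell thinned to 100000 gene reads, which left 113 cells out of 120. Before stimulation, the median IL-13-index cell had reads of 1 member (range 0 to 1). Transition cells of that index had 8 members at 30 min (range 5 to 10), then 7 (4 to 9) and 5 (4 to 9), while activated cells had 5 (2 to 8) and silent ones 3 (1 to 8). IL-5-index cells had medians of 2 (range 1 to 4), 7 (5 to 9), 6 (3 to 9), 5.5 (2 to 8) and 5 (2 to 7) through the activated state, and 4 (1 to 7) when silent. Silent cells overlapped with cells at 30 min in both indexes. Unthinned, the medians differed by at most 1 member, and the IL-13-index cells taken before stimulation had reads of 0 to 3 members and the activated ones of 2 to 9. The largest contrasts at 30 min against activated cells were those of Hivep2 (9 of 11 cells against 1 of 11) and Tnfaip3 (9 of 11 against 2 of 11) in the IL-13 index, and Nfkbid (8 of 10 against 0 of 11) in that of IL-5.

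**Figure D4:**
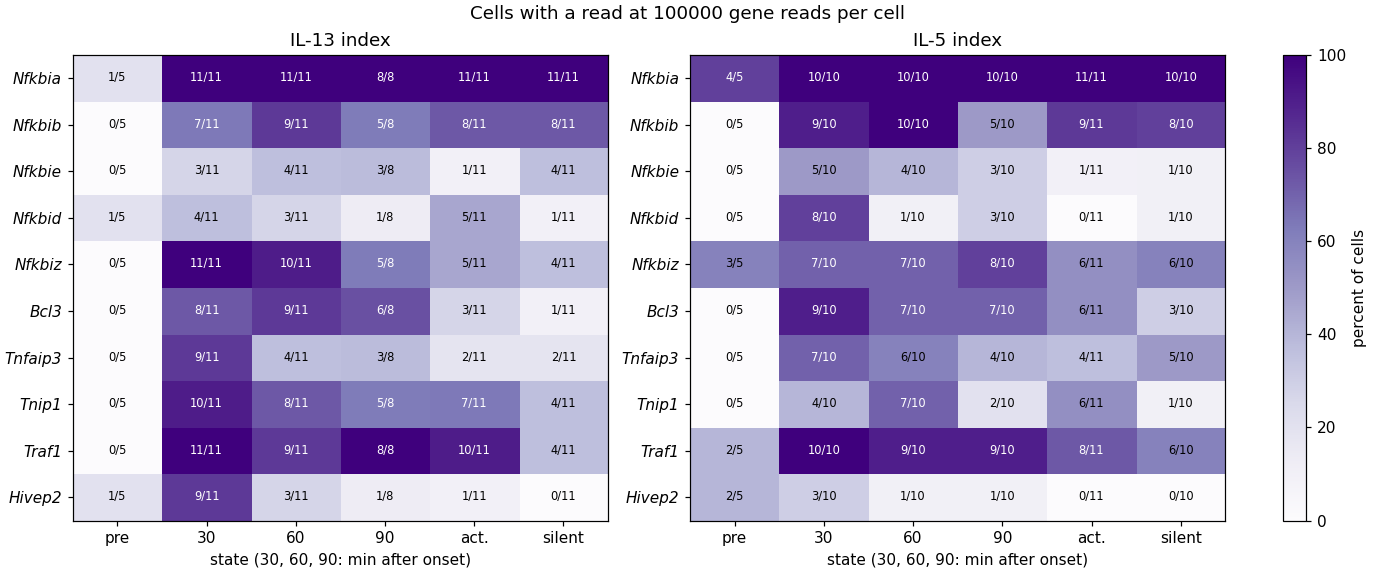
Cells with a read of each member over cells kept, after thinning each cell to 100000 gene reads, for the IL-13 index (left) and the IL-5 index (right); color is the percent of cells. Nfkbia is read in every stimulated cell kept, Nfkbiz and Traf1 in 11 of 11 cells at 30 min of the IL-13 index, and Nfkbid in 0 of 11 activated IL-5-index cells.

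The 36 other genes of the pathway were described by counts under the same rule. At 30 min against pre-stimulation, 16 were higher and 3 lower in the IL-13 index, where 36.9% and 32.9% of all genes were, and 14 and 7 in that of IL-5, where 37.8% and 31.7% were. Of the 36, 23 and 28 passed the minimum in these comparisons. Their levels are sums over cells, and how the reads were shared among cells is not given. As for the members, such a level can rest on 1 cell. Of the NF-kB subunits, 5 of 5 were higher in the IL-13 index and 4 of 5 in that of IL-5. Rel, the c-Rel subunit, had 1024 CPM against 1.04 CPM in the IL-13 index and 639 CPM against 0 in that of IL-5, and Relb had 339 and 91.8 CPM against 0. The 1 subunit gene within 2-fold was Rela in the IL-5 index, at 71.2 against 81.7 CPM. Of the 3 kinase complex genes, 0 were called in either index, with 2 and 1 of them under the minimum, and Ikbkb, the catalytic subunit IKK-beta, had 40.7 against 43.6 CPM and 63.4 against 92.4 CPM. Il1rl1, which encodes the IL-33 receptor ST2, was within 2-fold at 1308 against 863 CPM and 1586 against 1524 CPM. Among 17 other negative regulators and adaptors, 9 were higher and 2 lower in the IL-13 index and 7 and 4 in that of IL-5. Otulin, which removes linear ubiquitin chains, had 150.2 and 142 CPM against 0, and Zc3h12a, which encodes the RNA-degrading enzyme Regnase-1, had 67.2 CPM against 1.04 CPM and 28.7 CPM against 0. Cyld, another enzyme that removes ubiquitin, was lower in both, at 5.98 against 20.7 CPM and 0.563 against 80.8 CPM. The other genes called lower in the IL-13 index were Irak4 (4.11 against 102 CPM) and Rnf11 (0 against 31.1 CPM). Called in opposite directions in the IL-13 and the IL-5 index were N4bp1 (93.4 CPM against 0, and 0 against 157 CPM), Irak2 (90.4 against 15.6 CPM, and 1.41 against 126 CPM), Traf2 (56.4 CPM against 0, and 94.9 against 200.5 CPM) and Rnf11, which had 102 CPM against 0 in the IL-5 index, differences that were not tested.

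In activated cells against 30 min, 12 of these 36 genes were lower and 4 higher in the IL-13 index (31.4% and 31.0% of all genes), and 9 and 4 in that of IL-5 (30.4% and 23.4%), and 26 and 25 of the 36 passed the minimum. Rel had 190.1 CPM against 1024 CPM and 113 CPM against 639 CPM, and Nfkb2 had 152 CPM against 404 CPM and 187 CPM against 462 CPM. Kinase complex genes were lower in 0 of 3 cases in both indexes, and 2 of 3, Chuk and Ikbkg, were higher in the IL-5 index, at 46.1 against 12.1 CPM and 21.4 CPM against 0. The other higher genes there were Map3k7 (39.7 against 5.35 CPM) and Il1rap (24.4 CPM against 0). With IL-13 as index the higher ones were Myd88 (42 CPM against 0), Cyld (36.3 against 5.98 CPM), Itch (62.3 against 25.8 CPM) and Rnf11 (85.2 CPM against 0).

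The genes whose level over the 12 groups was most like each member's were found by Pearson's r of log2(CPM + 1), among 2658 genes with a mean of at least 50 CPM. The 12 groups share libraries of 2 indexes and the contrast between 5 pre-stimulation cells and all others, so r is a description only. Nfkbia was most like Rrad (r = 0.98), Rel (0.974) and Ahr (0.963). Nfkbiz was most like Pdcd1lg2 (0.961), Mif4gd (0.957) and Traf1 (0.954), the last a member itself. Traf1 was most like Top1 (0.974), Cdc37 (0.971) and Nfkb2 (0.966), with Nfkbiz in place 7. Bcl3 and Tnfaip3 were both most like Bcor (0.97 and 0.967). For Tnip1 the nearest were Egr2 (0.931), Rel (0.92) and Nfkbib (0.913). Nfkbie, Nfkbid and Hivep2 lay under the 50 CPM minimum.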

How the data were processed

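The 10 members and the pathway and marker lists were chosen with earlier results of these data known. Libraries of single ILC2 were made with a kit that copies polyadenylated RNA and reads its 3' end. The deposited values are counts of reads per gene and cell, which the authors made by alignment with TopHat2 to GRCm38 (mm10) and counting with HTSeq. The annotation release and the strand setting are not given in the sources used here. Of all alignments, 62% lay in genes and 28.7% were not unique. The 5 summary lines of the counter were left out of depth. The 935 identifiers that matched no gene name (0.0886% of reads) stayed in it.

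Gene positions are from the GENCODE annotation of GRCm38. Counts were summed over the cells of each of the 12 groups of index and state, and divided by the group's gene reads (964383 to 3732032). Named genes are all 10 members, other pathway genes where a count is 5 or fewer or as examples, which were chosen after their values were seen, and the genes most like each member, up to 3, which for Nfkbib are not reported here. Ratios carry exact Clopper-Pearson 95% intervals of the split of reads. A group of cells was 1 sample, so no test was run. Levels were ordered by group, and neighbours whose ranges on leaving out each cell overlap were not told apart. Alternatives were TMM (edgeR 4.0.16), size factors (DESeq2 1.42.0), the mean of cells, another minimum, pre-stimulation cells of both indexes, each title date, and cells left out. Scripts used Python 3.11.15, pandas 2.3.3, scipy 1.17.1 and R 4.3.3 and were tested on simulated data.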

Additional observations from a re-analysis of the deposited data

Results flagged for a closer look

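Of the groups of 5 pre-stimulation cells, 5 held a cell far from the others, by the gap to its nearest neighbour relative to the range of the group on the scale of log2(CPM + 1). In the IL-13 index these were the highest cells for Nfkbia (862 CPM), Nfkbid (699 CPM), Nfkbiz (4.63 CPM, 1 read) and Hivep2 (13.9 CPM, 3 reads), and in the IL-5 index the lowest cell for Nfkbia (0 CPM). Where 4 of 5 cells were at 0, as for Nfkbiz and Hivep2, any read in the fifth is far from the others by construction, so the rate of about 1 in 20 groups that chance gives for spread-out values does not apply. Groups of 11 cells were not examined in this way.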

How the results depend on the processing

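Groups are single samples of 5 or 11 cells, so the 1 read that a level of about 1 CPM rests on and the few cells that carry many reads limit what can be seen, and p-values were not computed. No paired analysis was possible because the replicate numbers only name cells and no result comes from a test. Of the member counts recomputed under the alternatives, 261 were within 1.5 times the reported count and 51 were not, and of the log2 ratios of single members, 692 moved by less than their interval, 508 by more, and 8 turned. In every case the cause was not tested.

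By the mean over cells of log2(CPM + 1), members higher were 2 (IL-13 index, 60 against 30 min), 1 (IL-5 index, 60 against 30 min), 4 and 3 (activated against silent, IL-13 and IL-5 index) and 3 (30 min, IL-5 against IL-13 index), and members lower were 6 and 5 (90 against 30 min), 0 (activated against pre-stimulation, IL-13 index) and 5 (30 min, IL-5 against IL-13 index). In the IL-13 index, 90 against 30 min, 4 members were lower with DESeq2's size factors, 4 without the shallow cells, 4 on the first title date and 1 with a minimum of 50 CPM. On the first date, 1 member was also lower at 30 min against pre-stimulation (1 also by the mean of cells' own CPM), 1 was higher at 60 min, 0 were lower in activated cells against pre-stimulation and 4 were higher against silent cells, all in the IL-13 index. On that date 1 member was higher at 90 min in the IL-5 index, and between indexes 2 were higher and 1 lower. Between indexes, members higher were 0 with size factors and 2 by cells' own CPM.

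With a minimum of 50 CPM, members higher were 3 in silent (IL-13 index) and 3 in activated cells (IL-5 index) against pre-stimulation, 1 and 0 in activated against silent cells, members lower were 0 in activated against silent cells (IL-13 index) and 1 between indexes. With no minimum, 3 and 2 were lower in activated and silent cells against pre-stimulation with IL-13 as index, 2 and 1 with IL-5, and 1 was higher at 90 min and 2 in activated against silent cells of the IL-5 index. With pre-stimulation cells of both indexes, 0 (IL-13 index) and 1 (IL-5 index) were lower in activated cells.

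On leaving out each cell in turn, IL-13 index counts ranged from 0 to 1 (lower at 30 min), 0 to 1 (higher at 60 min), 0 to 1 (higher at 90 min), 2 to 4 (lower at 90 min), 0 to 1 (lower in activated and in silent cells against pre-stimulation), 1 to 3 (higher in activated against silent) and 1 to 2 (lower). In the IL-5 index they ranged from 0 to 1 (higher at 60 min), 4 to 7 (lower at 60 min), 0 to 1 (higher in activated against silent) and 1 to 3 (lower), and between indexes from 0 to 2 (higher).

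The log2 ratio of Nfkbid in the IL-13 index was 0.52 in activated cells against pre-stimulation by the mean of log2 values and from -2.08 to 3.36 on leaving out each cell, and in silent cells from -6.66 to 1.07. In the IL-5 index, that of Nfkbid in silent cells was -0.66 against pre-stimulation cells of both indexes and from -1.21 to 4.01 on leaving out each cell. Nfkbie at 90 against 30 min was 0.28 and Tnip1 in activated against silent cells -0.65 on the first date, and Tnip1 in activated cells against 30 min was 0.08 by the mean of log2 values.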
